A study of Mus musculus with 16 samples.

Results

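The genotype by drug interaction was examined in inguinal white fat (iWAT), the subcutaneous depot of the groin, using the 8 libraries labelled iWAT among the 16 libraries of the series. For each gene it is the rosiglitazone response of K107R mice minus that of wild-type (WT) mice, and it was computed from all 8 libraries on log2(FPKM + 1), where FPKM is the fragment density of a gene relative to its transcript length and to the library's mapped total. K107R animals are homozygous for a PPARg in which the lysine named in K107 is replaced by arginine. There were 2 libraries, with numbers 1 and 2, in each of 4 groups: WT vehicle, K107R vehicle, WT rosiglitazone and K107R rosiglitazone. Every group had 10 weeks of chow and then 19 weeks of a high-fat diet that supplied 60% of calories, followed by 1 week of oral gavage with 1% methylcellulose, the vehicle, or with rosiglitazone at 10 mg/kg in it. The labels do not say whether the 2 libraries of a group came from separate mice. The p-values here measure how far libraries of a group spread, pooled over all 16 libraries, which include 8 of epididymal fat. That spread may be technical.

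PPARg is the nuclear receptor that drives fat cell formation and lipid storage. It binds DNA together with a retinoid X receptor, and rosiglitazone is a synthetic ligand that activates it. Attachment of the small protein SUMO to that lysine is known to dampen transcription by PPARg. Inguinal fat lies under the skin beside muscle, holds a lymph node, and can take on features of brown fat when PPARg is activated.

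Fat cell markers were abundant in every iWAT library, with adiponectin, Adipoq, between 1442 and 3320 FPKM. Libraries with number 2 stood apart from those with number 1 in all 4 groups: their median FPKM was 5.36 to 6.32 against 9.23 to 9.59, and Actb, beta-actin, was at 21.7 to 39.5 FPKM against 770.8 to 874 FPKM. The deposited FPKM carry no read counts, so the depth behind each value is unknown. Car3, Scd1, Lpl and Fabp4, abundant fat cell genes, were left out because whole groups were listed at 0, Fabp4 in all 8 libraries. Values below are given for number 1 and then number 2. Pparg itself was at 130.2 and 63.9 FPKM with vehicle and 138.8 and 74.2 with rosiglitazone in WT, against 143.8 and 65.0 with vehicle and 162.5 and 82.1 with rosiglitazone in K107R. Its interaction was 0.10 with a 95% interval from -1.48 to 1.69. A residue change leaves no mark on a gene's FPKM, so this level does not check the genotype labels. Of 29 genes that encode PPARg, receptors and cofactors it works with or SUMO enzymes, 0 passed the interaction test, against 0.944% of all tested genes. Their median interaction was -0.03 beside 0.03 for all tested genes.

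The interaction passed the test (limma, Benjamini-Hochberg adjusted p under 0.05) in 129 of 13665 genes, or 0.944%. It was positive, meaning a more positive rosiglitazone response in K107R, in 10 genes (0.0732%) and negative in 119 (0.871%). An unadjusted p under 0.05 was reached by 577 genes. With the replicate number as a block, 343 genes (2.51%) passed, 50 positive (0.366%) and 293 negative (2.14%), and all 129 were among them. Without any 1 of the 8 libraries the count fell to between 69 and 114, and the positive calls to between 5 and 8. The lymphoid, skeletal muscle and hair or skin genes together held 37 of the 129. The other 13549 genes gave 9 positive and 83 negative calls, or 49 and 231 with the block.

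Sptlc3, a catalytic subunit of serine palmitoyltransferase, the first enzyme of sphingolipid synthesis (chromosome 2, 139493913 to 139637061, GRCm38.p6), had the largest interaction of the 10 positive genes. It was at 0.0917 and 0.0619 FPKM with vehicle and 3.93 and 2.77 with rosiglitazone in WT, against 1.68 and 0.961 with vehicle and 54.9 and 39.6 with rosiglitazone in K107R. The 4 groups did not overlap, and the doubly changed group stood far above the other 3. The interaction was 2.38 ± 0.33 (SE; limma adjusted p = 0.00803), 2.21 in number 1 and 2.54 in number 2. In plain FPKM the K107R rosiglitazone value was above the sum of the separate effects, which gave an added expectation of 5.51 and 3.67 FPKM. It was below their product: the multiplied expectation was 71.8 and 43.0 FPKM. The fold response to rosiglitazone was 42.8 and 44.8 in WT and 32.7 and 41.2 in K107R, a ratio of ratios of 0.764 and 0.920. The positive interaction of Sptlc3 thus holds for differences and for log2(FPKM + 1), and not for plain ratios. With a pseudocount of 0.1 in place of 1 it was 0.82 (limma adjusted p = 1).

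Scnn1g, a subunit of the epithelial sodium channel (chromosome 7, 121734420 to 121768482), had the same form. It was at 0.0397 and 0.0270 FPKM with vehicle and 0.304 and 0.269 with rosiglitazone in WT, against 0.941 and 0.540 with vehicle and 5.46 and 4.58 with rosiglitazone in K107R. The interaction was 1.48 ± 0.16 (limma adjusted p = 0.00221), while the ratio of ratios was 0.759 and 0.850. With the pseudocount of 0.1 the interaction was 1.11 and no longer passed (limma adjusted p = 0.352). The neighbouring gene Scnn1b, another subunit of that channel (chromosome 7, 121865038 to 121918728), reached 1.52 and 1.25 FPKM in K107R rosiglitazone and stayed at or under 0.255 in the other 6 libraries. Scnn1b passed with an interaction of 0.97; its top group mean is under the 2 FPKM set for named genes, so it was named after its values were seen, as were Adra2a and Cdh23.

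In 7 of the 10 positive genes the K107R rosiglitazone value exceeded both expectations in both numbers. Slc25a34, a mitochondrial carrier (chromosome 4, 141618819 to 141623891), was at 0.817 and 0.553 FPKM with vehicle and 1.97 and 1.83 with rosiglitazone in WT, against 1.18 and 1.25 with vehicle and 6.75 and 6.74 with rosiglitazone in K107R. Rosiglitazone multiplied it by 2.41 and 3.31 in WT and by 5.72 and 5.38 in K107R. The interaction of Slc25a34 was 1.02 ± 0.17 (limma adjusted p = 0.0202). It was lost when any of 6 of the 8 libraries was left out, with an adjusted p of up to 0.0942, so its call is near the threshold.

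Bmp4, a growth factor that commits precursors to the fat lineage, was nearly level in 3 groups. It was at 4.49 and 4.74 FPKM with vehicle and 4.50 and 4.15 with rosiglitazone in WT, against 5.54 and 5.19 with vehicle and 12.5 and 11.1 with rosiglitazone in K107R. Both K107R rosiglitazone libraries lay above the other 6. The interaction was 1.08 ± 0.19 (limma adjusted p = 0.0305), the call was lost without any 1 of the 8 libraries (adjusted p up to 0.142), and the ratio of ratios was 2.25 and 2.44. For Bmp4 the expectation is about the same whether effects are added, at 5.54 and 4.59 FPKM, or multiplied, at 5.54 and 4.54.

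Hhatl, related to the acyltransferase of hedgehog proteins, and Btnl6, a butyrophilin-like membrane protein, also passed at low levels. Hhatl was at 2.0 and 2.12 FPKM in K107R rosiglitazone and at or under 0.475 elsewhere, with an interaction of 1.10 (limma adjusted p = 0.0017). Btnl6, a member of a gene family whose reads can be shared between copies, was at 2.0 and 2.28 FPKM and at or under 0.504 elsewhere, with an interaction of 1.11 (limma adjusted p = 0.00127). The alpha-2A adrenergic receptor gene Adra2a reached 2.16 and 1.51 FPKM in K107R rosiglitazone and was at or under 0.523 elsewhere. Sbsn, suprabasin of keratinised skin and the only positive call in the hair and skin class, was lower with rosiglitazone in WT, at 12.7 and 13.3 FPKM against 21.5 and 20.8 with vehicle, and higher in K107R, at 31.1 and 29.7 against 22.5 and 16.1. The drug responses of Sbsn were -0.66 in WT and 0.65 in K107R. Cdh23, a cadherin, was lower with each change and lowest with both, at 0.0301 and 0.0370 FPKM, so its positive sign is a fall that was smaller than the sum of the separate falls. Its ratio of ratios was 0.423 and 0.678, on the negative side, which made it the third exception to the ratio beside Sptlc3 and Scnn1g. The calls of Sbsn, Adra2a and Cdh23 were lost without any 1 of 6, 7 and 7 of the 8 libraries (limma adjusted p up to 0.108, 0.140 and 0.172), while Sptlc3, Scnn1g, Scnn1b, Hhatl and Btnl6 passed without each of the 8. With the pseudocount of 0.1 the calls of Hhatl, Slc25a34, Adra2a and Cdh23 were lost as well (limma adjusted p = 0.0624, 0.263, 0.0948 and 1). In a fit on the 8 inguinal libraries alone 0 positive calls remained. The adjusted p in limma was then 0.314 for Sptlc3, 0.228 for Scnn1g, 0.135 for Scnn1b, 0.0842 for Btnl6 and 0.0608 for Hhatl.

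The promoters of the positive genes were read for the hexamer AGGTCA, the core sequence that PPARg and many other nuclear receptors bind, on both strands of RefSeq windows from 250 bases before to 50 after each start (GRCm38.p6). Of 19 named positive genes 16 had a window, and 4 of these held a match (Hhatl, Slc25a34, S100g and Scnn1b), against 18.1% of 27025 genes and 16.3% of 32851 windows. A match is a description of letters, not a site. Windows of Slc25a34 (chr4:141623785-141624084, minus strand) and Hhatl (chr9:121792458-121792757, minus strand) are shown because their genes passed the test and these windows held a match. A window of Plin5 (chr17:56117499-56117798, minus strand) is shown because its gene held a match without a positive interaction. Each is written 5′ to 3′ on the gene's strand, with the match in capitals, read as TGACCT where it lies on the other strand.
Slc25a34: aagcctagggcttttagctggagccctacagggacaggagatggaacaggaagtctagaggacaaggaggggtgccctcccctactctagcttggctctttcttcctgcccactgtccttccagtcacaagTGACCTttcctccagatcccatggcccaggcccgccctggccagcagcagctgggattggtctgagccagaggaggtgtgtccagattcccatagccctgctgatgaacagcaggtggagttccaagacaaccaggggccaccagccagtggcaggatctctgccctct
Hhatl: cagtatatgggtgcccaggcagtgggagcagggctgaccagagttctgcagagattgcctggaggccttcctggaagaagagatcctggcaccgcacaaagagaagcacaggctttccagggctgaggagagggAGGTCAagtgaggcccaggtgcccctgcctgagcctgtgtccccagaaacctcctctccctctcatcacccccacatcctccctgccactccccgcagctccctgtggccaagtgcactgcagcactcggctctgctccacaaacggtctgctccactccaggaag
Plin5: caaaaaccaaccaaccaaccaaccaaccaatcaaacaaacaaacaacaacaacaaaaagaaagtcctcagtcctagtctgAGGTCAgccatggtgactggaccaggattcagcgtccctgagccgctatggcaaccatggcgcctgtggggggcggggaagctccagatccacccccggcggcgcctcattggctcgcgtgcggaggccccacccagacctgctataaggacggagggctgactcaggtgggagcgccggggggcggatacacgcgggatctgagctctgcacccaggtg
The Fabp3 window held no match, nor did another window of Hhatl (chr9:121791071-121791370, minus strand). Another window of Plin5 (chr17:56117249-56117548, minus strand) held 1.

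Another group of positive genes, several of them abundant in fat, did not pass this test and did with the replicate block. Hsd17b11, a dehydrogenase found on lipid droplets (chromosome 5, 103989765 to 104021796), was at 55.0 and 39.2 FPKM with vehicle and 90.6 and 80.3 with rosiglitazone in WT, against 73.7 and 42.8 with vehicle and 431 and 315 with rosiglitazone in K107R. Rosiglitazone multiplied it by 1.65 and 2.05 in WT and by 5.85 and 7.37 in K107R. The interaction was 1.83 ± 0.37 (limma adjusted p = 0.0607; 0.00217 with the block and 0.000722 after rescaling the libraries by median ratios), and the ratio of ratios was 3.55 and 3.60.

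Fabp3, the fatty acid binding protein of heart and brown fat (chromosome 4, 130308738 to 130315463), was at 9.30 and 11.4 FPKM with vehicle and 17.8 and 21.2 with rosiglitazone in WT, against 15.6 and 14.9 with vehicle and 71 and 105.9 with rosiglitazone in K107R. The 4 groups did not overlap, and the K107R rosiglitazone libraries stood far above the rest. The interaction of Fabp3 was 1.58 ± 0.33 (limma adjusted p = 0.066; 0.00205 with the block), and the top value was 2.38 and 3.83 times the multiplied expectation. Elovl3, the fatty acid elongase induced in brown and beige fat, was at 1.74 and 1.04 FPKM with vehicle and 11.2 and 8.74 with rosiglitazone in WT, against 3.55 and 2.44 with vehicle and 65.3 and 42.8 with rosiglitazone in K107R. The interaction of Elovl3 was 1.56 ± 0.40 (limma adjusted p = 0.167; 0.00895 with the block and 0.00228 after rescaling), with a ratio of ratios of 2.86 and 2.08.

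Other genes that did not pass the main test had a positive sign and passed with the block. Fbp2, the muscle form of fructose bisphosphatase, was at 25.6 and 31.0 FPKM in K107R rosiglitazone and between 5.90 and 9.43 in the other 6 libraries (interaction 1.28; limma adjusted p = 0.0989, 0.00194 with the block). Dusp9, a MAP kinase phosphatase, was at 28.3 and 28.8 FPKM against 6.04 to 11.8 elsewhere (0.96; limma adjusted p = 0.0693, 0.007 with the block). Papln, an extracellular matrix protein, was at 6.25 and 10.6 FPKM against 1.49 to 4.30 elsewhere (1.59; limma adjusted p = 0.368, 0.00205 with the block). In each of these the K107R rosiglitazone libraries were the 2 highest of the 8. S100g, a calcium-binding protein, had interactions of 1.68 and 1.79 in numbers 1 and 2, and Slc8a3, a sodium-calcium exchanger, 1.15 and 0.96. Without the block S100g and Slc8a3 passed after rescaling (limma adjusted p = 0.0238 and 0.00023).

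Itgad, an integrin alpha chain of macrophages, shows how the scale sets the sign. It was at 8.18 and 9.0 FPKM with vehicle and 2.76 and 3.24 with rosiglitazone in WT, against 53.9 and 57.5 with vehicle and 41.1 and 44.0 with rosiglitazone in K107R. Itgad was high in K107R and lower with the drug in both genotypes. On log2(FPKM + 1) the interaction was 0.88 (limma adjusted p = 0.077; 0.00314 with the block), since the level in rosiglitazone was 0.338 and 0.360 of vehicle in WT and 0.762 and 0.765 in K107R. In plain FPKM the interaction had the opposite sign, -7.57 FPKM (limma adjusted p = 0.897).

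**Figure D1:**
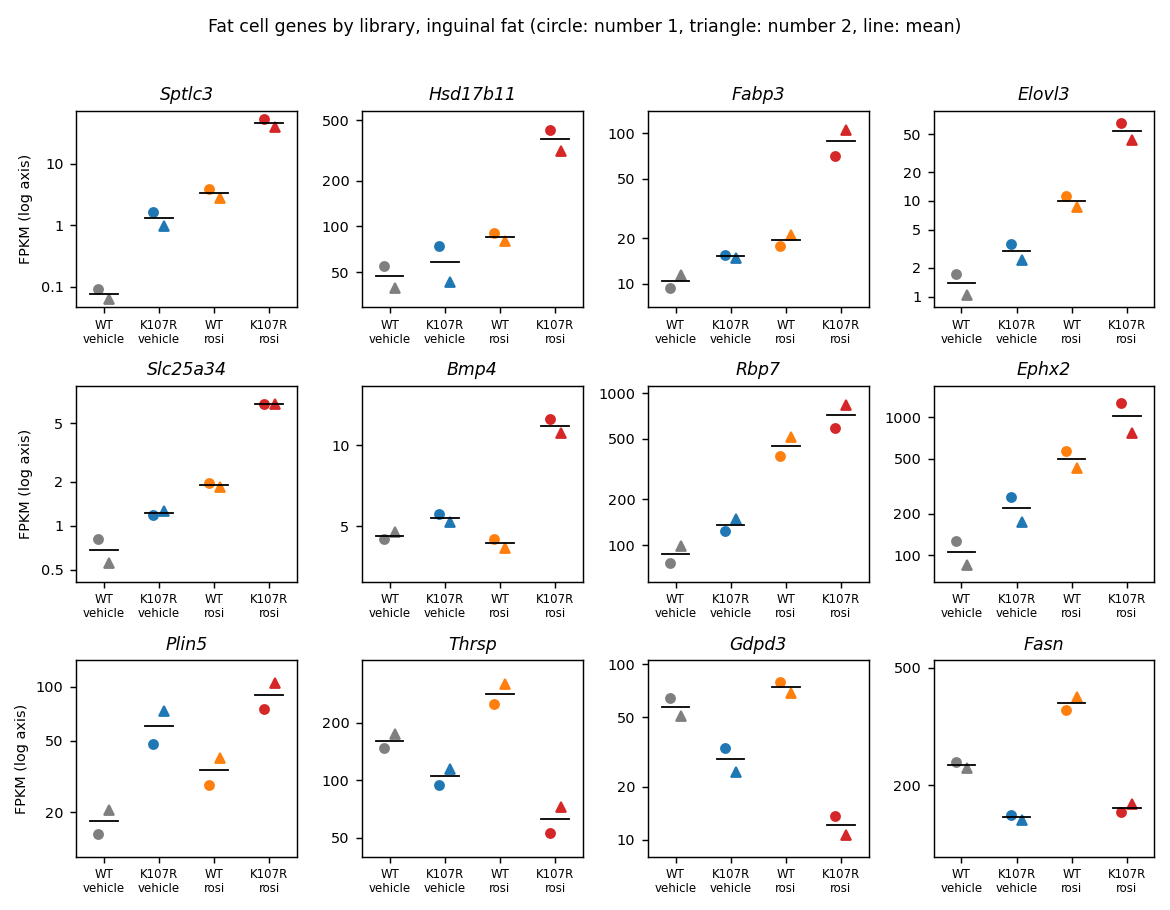
FPKM of 12 fat cell and named genes in each inguinal library on a log axis, by group (grey WT vehicle, blue K107R vehicle, orange WT rosiglitazone, red K107R rosiglitazone; circles number 1, triangles number 2, black lines the means of 2 libraries). The top group stands apart for Sptlc3, Hsd17b11, Fabp3, Elovl3, Slc25a34 and Bmp4, steps are even for Rbp7 and Ephx2, and Thrsp and Gdpd3 are lowest in K107R rosiglitazone.

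Most textbook PPARg targets did not depart from multiplied effects by more than their error in this test. Rbp7, a retinol-binding protein of fat and its vessels, was at 76.4 and 99.3 FPKM with vehicle and 386.2 and 517.6 with rosiglitazone in WT, against 123.7 and 148.6 with vehicle and 593 and 841.1 with rosiglitazone in K107R. Rosiglitazone multiplied Rbp7 by 5.05 and 5.21 in WT and by 4.79 and 5.66 in K107R. Its interaction was 0.03, with a 95% interval from -0.76 to 0.81, and from -0.29 to 0.34 with the replicate block. Observed values were above the added expectation of 433.4 and 566.9 FPKM and beside the multiplied one of 624.9 and 774.6.

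Ephx2, soluble epoxide hydrolase, was at 127.1 and 85.9 FPKM with vehicle and 568.8 and 428 with rosiglitazone in WT, against 266.5 and 175.4 with vehicle and 1270 and 766.3 with rosiglitazone in K107R. Pdk4, the kinase that turns off pyruvate dehydrogenase, was at 44.0 and 26.1 FPKM with vehicle and 141 and 97.5 with rosiglitazone in WT, against 123.6 and 61.0 with vehicle and 377.5 and 223.2 with rosiglitazone in K107R. Both genes were higher with either change and highest with both. The interaction was -0.04 for Ephx2 (95% interval -1.03 to 0.95; -0.58 to 0.50 with the block) and -0.03 for Pdk4 (-1.45 to 1.39; -0.73 to 0.67 with the block). These intervals do not show that the responses were alike. In plain FPKM both were above the added expectation, while the ratio of ratios was 1.07 and 0.877 for Ephx2 and 0.953 and 0.981 for Pdk4.

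Plin5, a coat protein that ties lipid droplets to mitochondria, leaned below the product. It was at 15.1 and 20.5 FPKM with vehicle and 28.4 and 40.2 with rosiglitazone in WT, against 47.7 and 73.5 with vehicle and 75.1 and 105 with rosiglitazone in K107R. The interaction was -0.32 (95% interval -1.35 to 0.70; -0.61 to -0.04 with the block, limma adjusted p = 0.456). Cyp4b1, a fatty acid hydroxylating cytochrome, had an interaction of 0.22 (-0.15 to 0.59) and Gpd1, which supplies glycerol for triglyceride, one of -0.21 (-0.57 to 0.15). The hormone Fgf21 was at 2.02 and 1.70 FPKM with vehicle and 3.16 and 3.54 with rosiglitazone in WT, against 7.02 and 6.42 with vehicle and 15.4 and 14.4 with rosiglitazone in K107R, with an interaction of 0.44 (-0.03 to 0.90). Ehhadh, the bifunctional enzyme of peroxisomal fatty acid oxidation, had 0.88 (0.01 to 1.74; limma adjusted p = 1, and 0.074 with the block) and a ratio of ratios of 1.85 and 1.78. Ehhadh passed after rescaling (limma adjusted p = 0.0136), with block and rescaling together (0.00138), and with the block in the 8 inguinal libraries alone (0.0268).

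Ucp1, the uncoupling protein of brown and beige fat, did not take the course of Elovl3 and Fabp3. It was at 15.7 and 7.22 FPKM with vehicle and 29.4 and 16.3 with rosiglitazone in WT, against 6.74 and 3.34 with vehicle and 12.4 and 7.25 with rosiglitazone in K107R. Within each number the WT rosiglitazone library was the highest and the K107R vehicle library the lowest. The interaction of Ucp1 was -0.11, with an interval from -1.52 to 1.30 that covers sizeable departures either way. Cidea, a lipid droplet protein of brown fat, ranged from 25.8 to 37.9 FPKM over the 8 libraries with an interaction of -0.34 (-0.89 to 0.21).

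**Figure D2:**
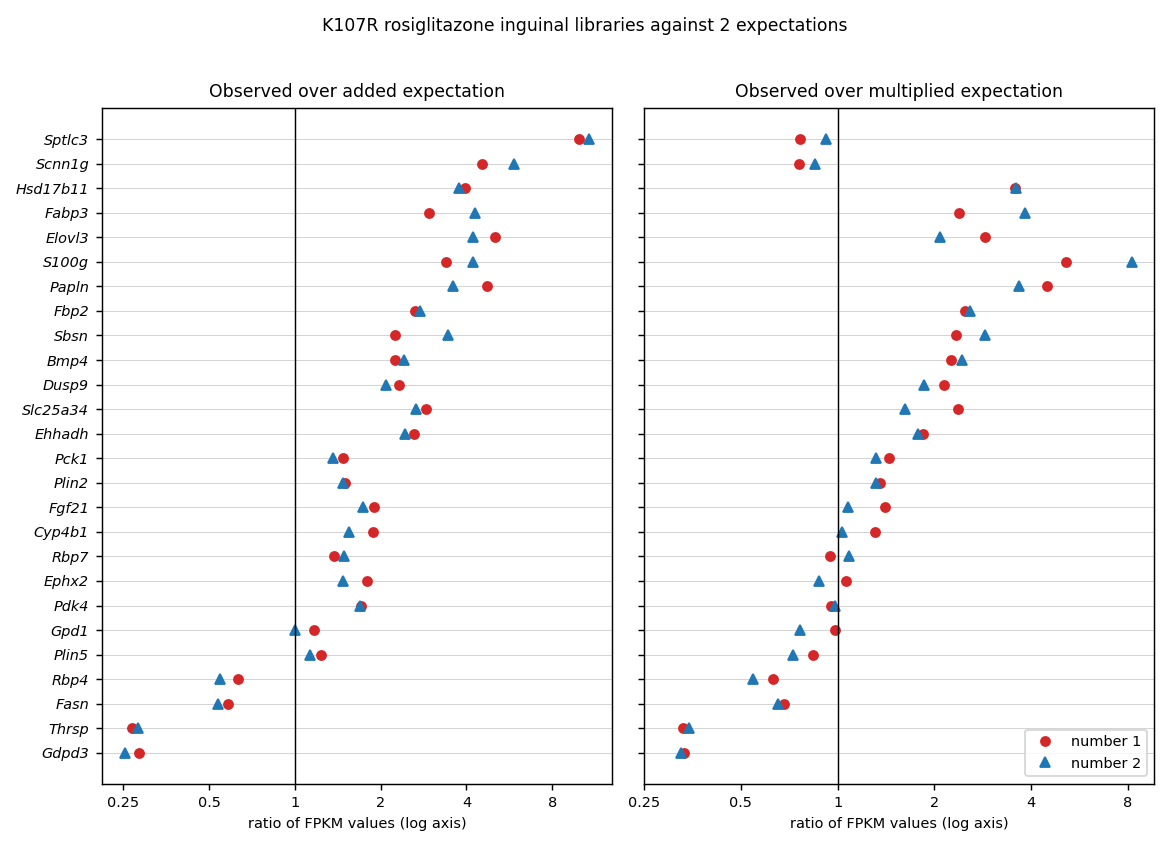
FPKM observed in the K107R rosiglitazone libraries divided by the added expectation (left) and by the multiplied expectation (right), on log axes, for 26 genes and each replicate number (red circles 1, blue triangles 2). Sptlc3 and Scnn1g lie right of 1 on the left and left of 1 on the right, Hsd17b11, Fabp3 and Elovl3 lie right of 1 on both, and Rbp7, Ephx2 and Pdk4 lie near 1 on the right.

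Gene by gene, then, positive departures were few, and the fat cell lists were read for their leaning. Of the PPARg target and storage genes, 0 of 26 passed in either direction, with or without the block, and the median interaction was 0.10. The share that passed was 0.944% of all tested genes, or 2.51% with the block. K107R rosiglitazone was the highest of the 4 groups in both numbers for 18 of these 26, or 69.2%, against 18.4% of all tested genes. It exceeded the added expectation in both numbers for 18 (69.2%, against 40.9% of all genes) and the multiplied one for 13 (50%, against 39.9%). Pck1, which feeds glycerol synthesis, and Plin2, a lipid droplet coat, had interactions of 0.46 (0.13 to 0.79; limma adjusted p = 0.423) and 0.42 (-0.28 to 1.12).

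Oxidative lists leaned to the positive side without any call. Of all tested genes, 0.944% passed (2.51% with the block), so 0 calls in lists this small say little. The median interaction of all tested genes was 0.03, and 39.9% lay above and 27% below the product in both numbers. In mitochondrial fatty acid oxidation 0 of 21 genes passed, the median was 0.14, and 17 (81%) exceeded the multiplied expectation in both numbers. Hadha, the alpha subunit of the trifunctional oxidation enzyme, had the smallest p there, with an interaction of 0.55 ± 0.17 (limma adjusted p = 0.412; 0.13 with the block). In peroxisomal oxidation 0 of 18 passed, with a median of 0.17 and 11 (61.1%) above the product. In the respiratory chain 0 of 28 passed, with a median of 0.18 and 21 (75%) above the product and 0 below it in both numbers. For lipolysis genes the counts were 0 of 16 passed, a median of 0.25 and 13 (81.2%) above the product. Of the brown and beige genes 1 of 20 passed, Sptlc3, and 3 with the block, Sptlc3, Fabp3 and Elovl3. Sptlc3 is counted also as the 1 of 22 sphingolipid genes that passed. Both lists were drawn up with earlier results of these data known, so these calls do not speak for either list as a whole. These shares describe the lists and carry no test of list against other genes.

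Lipogenic genes did not lean clearly as a list. Of 20 tested, 0 passed and 2 were negative with the block, Thrsp and Fasn. The list median was -0.03, with 12 genes of negative and 8 of positive sign. The product was exceeded in both numbers by 7 (35%, against 39.9% of all genes). Another 9 lay below it (45%, against 27%). Thrsp, the nuclear protein that promotes lipogenic gene expression (chromosome 7, 97412933 to 97417550), was at 146.7 and 173.8 FPKM with vehicle and 250.5 and 317.2 with rosiglitazone in WT, against 94.3 and 115.3 with vehicle and 53.3 and 72.5 with rosiglitazone in K107R. The drug went with a higher level in WT, by 1.71 and 1.83 times, and a lower one in K107R, at 0.566 and 0.629 of vehicle. The interaction of Thrsp was -1.55 ± 0.31 (limma adjusted p = 0.0511; 0.000242 with the block), and the observed value was 0.331 and 0.345 of the product. Fasn, fatty acid synthase, was at 239.5 and 228.5 FPKM with vehicle and 360.1 and 397.7 with rosiglitazone in WT, against 158.7 and 153 with vehicle and 162.4 and 173.4 with rosiglitazone in K107R, with an interaction of -0.59 (limma adjusted p = 0.145; 0.0327 with the block). The K107R groups lay below the WT groups for Fasn in both treatments, and rosiglitazone multiplied it by 1.50 and 1.74 in WT and 1.02 and 1.13 in K107R.

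Gdpd3, a lysophospholipase D (chromosome 7, 126766414 to 126775645), passed with a negative sign. It was at 64.1 and 50.9 FPKM with vehicle and 79.0 and 68.7 with rosiglitazone in WT, against 33.2 and 24.3 with vehicle and 13.7 and 10.7 with rosiglitazone in K107R. The 4 groups were apart and K107R rosiglitazone was lowest. The interaction was -1.53 ± 0.30 (limma adjusted p = 0.0468; 0.000298 with the block), and the call was lost without any 1 of 7 of the 8 libraries, with an adjusted p of up to 0.221. Rbp4, the retinol carrier secreted by fat, was at 190 and 159.9 FPKM with vehicle and 179.1 and 163.2 with rosiglitazone in WT, against 173.1 and 152 with vehicle and 102.5 and 84.9 with rosiglitazone in K107R. Rbp4 was low only in the K107R rosiglitazone libraries, with an interaction of -0.76 ± 0.20 (limma adjusted p = 0.204; 0.00888 with the block). Over the 8 libraries the log2 level of Gdpd3 had r = 0.97 with the mean log2 level of 11 lymphoid markers, that of Rbp4 0.89 and that of Thrsp 0.85; the part of lymphoid tissue in these values was not tested.

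**Figure D3:**
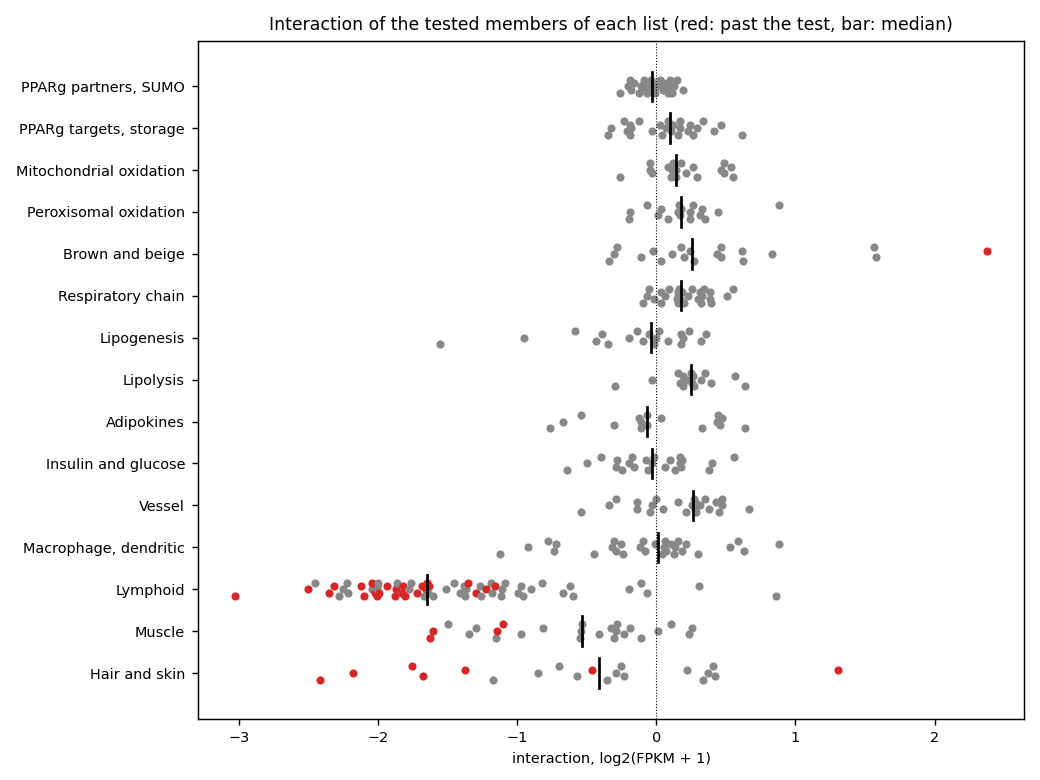
Interaction on log2(FPKM + 1) for each tested member of 15 gene lists (points; red past the test at adjusted p under 0.05 in limma, grey not), with the list median as a black bar and 0 as a dotted line. Sptlc3 at 2.38 is the red point among brown and beige genes, a list drawn up with earlier results of these data known. The lymphoid list is centred near -1.65.

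The negative calls were led by lymphoid genes. Of 67 tested genes of the lymphoid class, 26 passed and all 26 were negative (48 with the block). Of all tested genes, 0.871% passed with a negative sign, or 2.14% with the block. The class median was -1.64 beside 0.03 for all genes. Cd79b, a signalling chain of the B cell receptor, was at 50.2 and 57.4 FPKM with vehicle and 76.1 and 104.3 with rosiglitazone in WT, against 29.9 and 33.7 with vehicle and 8.78 and 11 with rosiglitazone in K107R. WT rosiglitazone was highest and K107R rosiglitazone lowest, with no overlap between groups. The interaction was -2.32 ± 0.26 (limma adjusted p = 0.00255), and rosiglitazone multiplied Cd79b by 1.52 and 1.82 in WT and by 0.293 and 0.327 in K107R. Glycam1, the mucin-like ligand for L-selectin made by lymph node vessels, had a larger departure. It was at 22.9 and 15.9 FPKM with vehicle and 70.5 and 50.3 with rosiglitazone in WT, against 19.6 and 12.9 with vehicle and 6.84 and 4.03 with rosiglitazone in K107R, with an interaction of -3.03 ± 0.43 (limma adjusted p = 0.00904; 0.0661 with a pseudocount of 0.1). The call of Cd79b was lost after rescaling (limma adjusted p = 0.0924; 0.00205 with block and rescaling).

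That order of the 4 groups, WT rosiglitazone, WT vehicle, K107R vehicle and K107R rosiglitazone from high to low, held within both numbers for 55 of 66 listed lymphoid genes (83.3%), against 4.71% of all genes. The order was read from Cd79b, a member of that list, in the same libraries, so the share is a description and no test. K107R rosiglitazone was lowest in both numbers for 61 of the 66, against 20.6% of all genes. Summed over the list, lymphoid FPKM was 1263 and 1049 with vehicle and 1858 and 1594 with rosiglitazone in WT, against 908.8 and 718.2 with vehicle and 385.1 and 297.4 with rosiglitazone in K107R. The sums do not overlap between WT and K107R. In bulk tissue fewer cells of a type and less RNA per cell cannot be told apart, nor can either from a different share of lymph node in the dissected piece. T cell genes moved with B cell genes: Cd4 had -1.72, Cd8b1 -2.10 and the T cell adaptor Lat -2.01. So did Blk (-1.88), a kinase of the B cell receptor pathway, Siglecg (-1.94), Vpreb3 (-2.02), Fcmr (-2.50), the lymphotoxin gene Ltb (-2.12) and the lymph node chemokine Ccl19 (-2.04). Each of these 9 passed the test. Of them Lat, Ccl19 and Fcmr lost the call without any 1 of 6, 6 and 5 of the 8 libraries, with adjusted p of up to 0.126, 0.108 and 0.105 in limma. Rescaling also ended the calls of Lat and Ccl19 (limma adjusted p = 0.379 and 0.399), and a pseudocount of 0.1 that of Vpreb3 (0.103).

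Negative calls outside the 3 classes mostly ran along with them. Of the 83, 57 had a correlation of at least 0.9 with the lymphoid marker level over the 8 libraries, against 2.48% of the 13549 genes outside the classes; groups and libraries are shared, so this is a description. Clu, clusterin, which follicular dendritic cells express strongly, is one, with r = 0.98 and an interaction of -1.97, and Dapl1 (-2.04, r = 0.96; limma adjusted p = 0.00813, and 0.0975 with a pseudocount of 0.1) and the myeloid and B cell receptor Treml2 (-1.37, r = 0.95) are others. Among those with a lower correlation, Irgc1, an interferon-inducible GTPase relative, was at 0.610 and 0.571 FPKM with vehicle and 1.94 and 2.42 with rosiglitazone in WT, against 1.53 and 1.05 with vehicle and 0.112 and 0.0377 with rosiglitazone in K107R. Both single changes went with more Irgc1 and both together with less than either (-2.08 ± 0.16; limma adjusted p = 0.000238). Ly6d, a surface protein of B cell precursors and of squamous epithelium, was at 9.58 and 18.6 FPKM in K107R rosiglitazone and between 36.9 and 153.6 elsewhere (-2.63; limma adjusted p = 0.0489). The calls of Clu and Ly6d were each lost without any 1 of 7 of the 8 libraries (limma adjusted p up to 0.168 and 0.205). The short RNA Mir6974, named after its values were seen, was at 313.9 and 286.3 FPKM in WT rosiglitazone and listed at 0 in the other 6 libraries. Short RNAs can share reads with their host transcripts in such a table, so that value is uncertain.

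**Figure D4:**
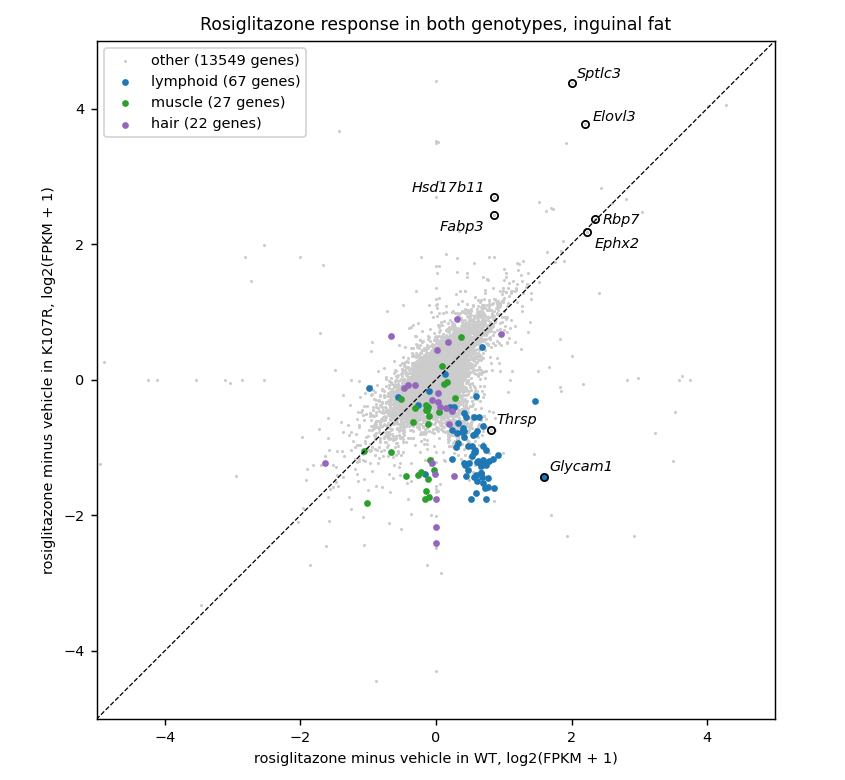
Rosiglitazone minus vehicle on log2(FPKM + 1) in WT (x axis) and in K107R (y axis) inguinal fat for each tested gene, by class, with the dashed line at equal responses and 10 genes, all short RNAs, outside the axis limits of 5. Lymphoid genes gather below the line and right of 0, Sptlc3, Elovl3, Hsd17b11 and Fabp3 lie above it, and Rbp7 and Ephx2 lie on it.

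Muscle and hair genes gave negative calls by another route, through high levels in K107R vehicle. Myh1, a fast myosin heavy chain, was at 0.341 and 0.434 FPKM with vehicle and 0.200 and 0.289 with rosiglitazone in WT, against 4.63 and 4.22 with vehicle and 0.606 and 0.601 with rosiglitazone in K107R. K107R vehicle was high and the other 6 libraries were low (-1.60 ± 0.10; limma adjusted p = 6.59e-05). Atp2a1, the calcium pump of fast muscle (-1.10), and myoglobin, Mb (-1.63), were the other named calls. Both were lost with a pseudocount of 0.1 (limma adjusted p = 0.184 and 0.141), and that of Atp2a1 also with a minimum of 5 FPKM (0.242). K107R vehicle was the group farthest from the median of the 4 group means for all 4 muscle and all 6 negative hair calls, and K107R rosiglitazone for 25 of 26 lymphoid calls. K107R vehicle was the highest group in both numbers for 20 of 25 muscle genes (80%), against 4.97% of all genes. Summed over the muscle list, FPKM was 267 and 246.7 in K107R vehicle, 186.2 and 161.4 in K107R rosiglitazone, and between 109.3 and 126.1 in the 4 WT libraries.

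Of the inner root sheath keratins of hair, Krt71 was at 3.50 and 3.56 FPKM, Krt25 at 4.37 and 4.43 and Krt27 at 2.30 and 2.46 in K107R vehicle. Krt71 and Krt27 were listed at 0 in the other 6 libraries, and Krt25 in 5 of them, with 0.0241 in K107R rosiglitazone number 1. Summed hair and skin FPKM ranged from 59.8 to 110.1 over the 8 libraries. Mammary epithelium genes gave 0 calls of 15, against 0.944% of all tested genes. Outside the naming rule and chosen after their values were seen, 4 genes of sperm chromatin had the same form: Prm2 was at 4.84 and 4.04 FPKM, Tnp1 at 3.71 and 5.58, Tnp2 at 3.21 and 2.80 and Prm1 at 3.23 and 4.07 in K107R vehicle. Each of Prm1, Prm2, Tnp1 and Tnp2 was listed at 0 in all 4 rosiglitazone libraries and was at most at 0.683 FPKM in WT vehicle. The call of Prm1 was lost without any 1 of the 4 rosiglitazone libraries (limma adjusted p up to 0.0602), and rescaling ended those of Prm1 (0.142) and Tnp1 (0.0518). The part of adjoining tissue in the K107R vehicle libraries was not tested.

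**Figure D5:**
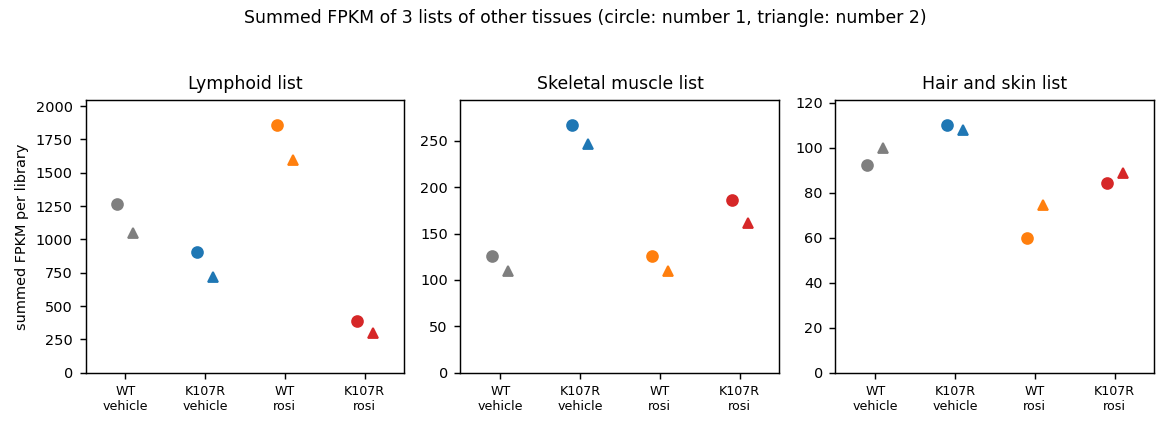
Summed FPKM of the lymphoid, skeletal muscle and hair and skin lists in each inguinal library (y axes from 0; circles number 1, triangles number 2), by group. Lymphoid sums are lowest in K107R rosiglitazone, at 385.1 and 297.4, and muscle sums highest in K107R vehicle, at 267 and 246.7.

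Judged against additivity, the signs of the calls were as follows. The called genes were chosen by their interaction in the same libraries, so these signs largely follow from the choice and carry no test. Of all tested genes, 40.9% exceeded the added and 39.9% the multiplied expectation in both numbers. K107R rosiglitazone was lowest in both numbers for 20.6% of them. All 10 positive genes exceeded the added expectation in both numbers and 7 also the multiplied one, and in 5 of the 10 each single change raised the mean and the combination was highest. With the replicate block, 49 of 50 positive genes exceeded the added and 47 the multiplied expectation. Of the 119 negative genes, K107R rosiglitazone was the lowest group in 100, and for 77 of the 83 outside the tissue classes the mean drug responses of the 2 genotypes had opposite signs. In a fit on plain FPKM 148 genes passed, 35 positive and 113 negative, and 101 of the 129 were among them. Hsd17b11, Fabp3, Elovl3, Fbp2, Dusp9, Fgf21, Cyp4b1, Pck1 and Hadha passed there with a positive sign (limma adjusted p from 0.00241 for Cyp4b1 to 0.0483 for Hadha).

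The interaction was compared with that of epididymal fat, the visceral depot by the epididymis, in the same fit. The depot difference passed in 323 genes (2.36%), with a positive sign in 227 (1.66%) and a negative one in 96 (0.703%). With the block it passed in 521 (3.81%), 301 positive (2.2%) and 220 negative (1.61%). A positive sign can stand for a negative epididymal interaction. Crisp1, Spint4 and Spink8, of a list of epididymis genes, passed with epididymal interactions of -8.40, -9.43 and -8.91. Their inguinal ones were -0.05, -0.04 and -0.02, at or under 0.0854 FPKM in iWAT. How many of the 227 were of this kind was not counted. With a minimum of 5 FPKM in 2 inguinal libraries the difference passed in 9 genes. For Sptlc3 the epididymal interaction was 1.34 and the difference 1.04 (limma adjusted p = 0.913). For Hsd17b11 it was 1.33, for Fabp3 1.51 and for Elovl3 1.8, and the differences from iWAT of 0.50, 0.08 and -0.24 had an adjusted p of 1 in limma. For these fat cell genes no difference between depots passed the test, which does not show that the depots were alike. The epididymal interaction itself passed for Fabp3 and Elovl3 (limma adjusted p = 0.0411 and 0.0438), and not for Sptlc3 or Hsd17b11 (0.0838 and 0.164). Among inguinal positive calls it passed for Scnn1g, Slc25a34, Btnl6 and Hhatl (interactions of 1.32, 0.83, 0.80 and 0.61), and not for Sbsn or Bmp4. Ucp1 had an epididymal interaction of 2.42 and a difference of -2.53 (limma adjusted p = 0.438; 0.0158 with the block). Of the 67 lymphoid genes the depot difference passed in 26, all negative, and in 46 with the block. Cd79b had an epididymal interaction of 0.43 and a difference of -2.74 (limma adjusted p = 0.00193), and Ltb 0.74 and -2.85 (0.000152). Fcmr, Ccl19 and Lat did not pass it (limma adjusted p = 0.0629, 0.066 and 0.18; 0.00436, 0.000518 and 0.00504 with the block). Gdpd3 (-1.73) and Thrsp (-1.91) were negative in epididymal fat as well, with differences of 0.20 and 0.36 that did not pass (limma adjusted p = 1 for both).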

How the data were processed

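RNA from inguinal and epididymal fat was sequenced as stranded mRNA libraries from 4 ug of total RNA with 75-nt single-end reads, per the labels' protocols. The authors deposited 1 table of FPKM per gene. CASAVA 1.8.2, TopHat2 2.0.12, Cufflinks 2.2.1 and mm10 are named in the submitters' processing notes; their settings are not given in the sources used here. FPKM hold no counts, so depth is unknown and no count test was run.

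From the 14023 genes, 4 were left out and 13665 that reached 1 FPKM in 2 or more libraries entered the test. limma 3.58.1 (R 4.3.3) was fitted to log2(FPKM + 1) with 1 mean for each of 8 groups over all 16 libraries, a mean-variance trend and 8 residual degrees of freedom. The contrast is the drug response in K107R minus that in WT, and p-values were Benjamini-Hochberg adjusted over all genes tested, with a threshold of 0.05. The added expectation is WT rosiglitazone plus K107R vehicle minus WT vehicle in FPKM of the same number. The multiplied expectation is WT rosiglitazone times K107R vehicle over WT vehicle, and the ratio of ratios is the observed value over it.

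Replicate numbers come from the labels. Libraries of equal number deviated from their group means together in each of 28 pairs of groups (r from 0.121 to 0.792; 0.699 to 0.792 for the 6 inguinal pairs), so the numbers were taken to pair libraries. The fit with the number as a block has 7 residual degrees of freedom. Other alternatives were the pseudocount, the filter, rescaling, library weights, inguinal libraries alone, plain FPKM, the 4 genes kept, and leaving out each library.

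Genes named are those past the test or with the smallest p, with a group mean of at least 2 FPKM, no library at 0 and the same sign in both numbers; up to 3 genes with the smallest p per list; and 15 genes of the PPARg response. The members and lists were chosen with earlier results of these data known. On simulated data of 13665 genes for the inguinal interaction, 9 of 100 genes with a log2 change of 1 and 47 of 100 with a change of 2 were recovered, with 3 false calls. The simulated noise was independent between libraries, while the real libraries of equal number deviated together. These recovery and false call figures therefore need not hold for the real data. Positions and promoters are from RefSeq GRCm38.p6, in which 13041 of 13665 symbols matched directly and 13636 with synonyms. Some results are not reported here.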

Additional observations from a re-analysis of the deposited data

Results flagged for a closer look

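The results here differ between the genotypes in their response to rosiglitazone, by the limma test of the difference itself at an adjusted p under 0.05; values are on log2(FPKM + 1). The positive ones were Sptlc3 at 2.38, Scnn1g at 1.48, Sbsn at 1.30, Btnl6 at 1.11, Hhatl at 1.10, Bmp4 at 1.08, Slc25a34 at 1.02, Scnn1b at 0.97, Adra2a at 0.92 and Cdh23 at 0.48. Among negative genes outside the tissue lists were Gdpd3 at -1.53, Clu at -1.97, Ly6d at -2.63, Irgc1 at -2.08, Dapl1 at -2.04 and Treml2 at -1.37.

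The lymphoid genes were Cd79b at -2.32, Glycam1 at -3.03, Ltb at -2.12, Fcmr at -2.50, Cd8b1 at -2.10, Cd4 at -1.72, Ccl19 at -2.04, Blk at -1.88, Siglecg at -1.94, Lat at -2.01 and Vpreb3 at -2.02. The genes high in K107R vehicle were Myh1 at -1.60, Atp2a1 at -1.10, Mb at -1.63, Krt71 at -2.18, Krt25 at -2.42, Krt27 at -1.76, Prm2 at -2.44, Tnp1 at -2.48, Tnp2 at -1.93 and Prm1 at -1.69.

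The interaction also differed between the depots, inguinal minus epididymal, by the limma test of that difference. It was -2.74 for Cd79b, -3.85 for Glycam1, -2.85 for Ltb, -2.48 for Cd8b1, -2.53 for Cd4, -2.06 for Blk, -2.20 for Siglecg, -2.46 for Vpreb3 and -1.52 for Treml2. It was -1.54 for Myh1, -2.18 for Krt71, -2.77 for Krt25 and -1.76 for Krt27. For Krt71 and Krt27 the epididymal interaction was 0, so the difference repeats the inguinal value. Of the inguinal libraries, only those of K107R vehicle listed these 2 genes above 0. The sperm chromatin genes had the opposite sign, with 2.39 for Prm2, 2.38 for Tnp2 and 3.26 for Prm1, since their interaction was more negative in epididymal fat.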

How the results depend on the processing

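The calls numbered 129, with 10 positive, 92 outside the lymphoid, muscle and hair classes, and 0.871% of the genes tested negative; these depended on the fit, and the cause was not tested. With the replicate block, which uses the pairing by number, there were 343 calls (50 positive, 280 outside the classes, 2.14% negative). Block and rescaling together gave 472 (100, 409 and 2.74%), and the block in the 8 inguinal libraries alone 454 (73, 387 and 2.79%). Without the block the inguinal libraries alone, with 4 residual degrees of freedom, gave 11 in limma (0, 7 and 0.0805%), with 424 genes at an unadjusted p under 0.05. Library weights gave 54 (5, 34 and 0.359%), and a minimum of 5 FPKM in 2 inguinal libraries, with 9542 genes tested, 51 (3, 30 and 0.503%). Rescaling gave 31 positive calls and 141 outside the classes, a pseudocount of 0.1 gave 5 positive calls, and plain FPKM gave 35. Positive genes made up 7.75% of the calls, 23.6% in plain FPKM and 21.2% with block and rescaling. Leaving out 1 library at a time, where the lone library of a group is assumed to vary like the other groups, gave 69 to 114 calls, 5 to 8 positive, 46 to 80 outside the classes and 0.446% to 0.783% negative. The total was lowest, at 69, without either K107R rosiglitazone library, and it moved by over 1.5 times for 6 libraries, the exceptions being WT vehicle number 1 (89) and K107R vehicle number 2 (114). The depot difference passed in 323 genes, in 521 with the block, in 670 with block and rescaling, in 9 with the 5 FPKM minimum, and in 270 to 319 without 1 library.

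In plain FPKM the sign turned for Itgad (-7.57), Ephx2 (405.5), Pdk4 (123.9), Plin5 (13.0) and Gpd1 (148.3). Leaving out 1 library turned the sign for genes near 0, with ranges of -0.23 to 0.28 for Rbp7, -0.41 to 0.32 for Ephx2, -0.53 to 0.47 for Pdk4, -0.62 to 0.40 for Ucp1 and -0.46 to 0.67 for Pparg. Of the 129 calls, 71 (55%) were among the 186 after rescaling and 91 among the 104 with a pseudocount of 0.1. Among genes named, rescaling ended the calls of Bmp4, Sbsn, Slc25a34, Cdh23, Cd79b, Ccl19, Lat, Ly6d, Tnp1 and Prm1, and brought Hsd17b11, Elovl3, Slc8a3, S100g, Ehhadh and Fos past the test. The pseudocount ended those of Sptlc3, Scnn1g, Hhatl, Slc25a34, Adra2a, Cdh23, Gdpd3, Ly6d, Glycam1, Vpreb3, Dapl1, Atp2a1 and Mb, and plain FPKM those of Gdpd3, Clu, Ly6d, Fcmr, Prm1, Prm2 and Tnp1. Depth is unknown.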

Other observations

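In some gene groups not described above many genes were lowest in K107R rosiglitazone, without a negative median interaction. Of 22 interferon-response genes, K107R rosiglitazone was lowest in both numbers for 12 (54.5%, against 20.6% of all genes), while 18 lay above the added expectation (81.8%, against 40.9%). The median interaction of that list was 0.31 and 0 genes passed, against 0.944% of all tested genes. Of 24 vessel genes, 15 were lowest there (62.5%), 18 lay above the added expectation (75%), the median interaction was 0.26 and 0 passed. The drug response had a median of -0.40 in WT and -0.16 in K107R for the interferon list, and -0.30 and -0.27 for the vessel list. Summed FPKM of both lists was highest in WT vehicle, at 348.7 and 283.4 for interferon and 1289.6 and 942.6 for vessel genes. The interferon sum was 262 and 184.5 in K107R vehicle and 241 and 185.7 in K107R rosiglitazone. For vessel genes these were 1017 and 722.3, and 929.5 and 716.9.

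Macrophage and dendritic genes gave 0 calls of 30, against 0.944% of all tested genes. With the replicate block 1 was positive and 4 were negative, against 0.366% and 2.14% of all tested genes. Saa3, an acute phase protein made by fat and macrophages, was at 10.5 and 11.6 FPKM with vehicle and 5.35 and 7.67 with rosiglitazone in WT, against 8.49 and 9.87 with vehicle and 1.19 and 1.52 with rosiglitazone in K107R. Both changes went with less Saa3, and the interaction was -1.41 (limma adjusted p = 0.0595; 0.00314 with the block). Fos, an immediate early transcription factor, was at 33.3 and 24.5 FPKM in K107R rosiglitazone and between 8.69 and 14.3 in the other 6 libraries (1.10; limma adjusted p = 0.270, 0.0237 with the block).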
